A study of Mus musculus with 12 samples.

Results

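The 10 genes of antigen processing and presentation were followed through a mouse heart experiment on myocardial infarction (MI). They are Tap1, Tap2, Tapbp, B2m, Psmb8, Psmb9, Psmb10, Nlrc5, Cd74 and Ciita, taken by gene symbol from the expression table and joined to the count table by gene identifier. These 10 genes are among 23660 genes with a symbol and counts, and all 10 passed the filter on low counts with 16910 genes in all.

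Per the labels, all samples are ventricle tissue of wild type male C57BL/6J mice aged 6 to 8 weeks, and the 12 samples fall into 4 groups of 3. The Fer-1+MI group received Fer-1 (ferrostatin-1) at 1 mg per kg per day from 24 h ahead of a lasting coronary ligation, placed on the left anterior descending artery. The Lip-1+MI group received Lip-1 (liproxstatin-1) at 3 mg per kg per day on the same schedule and had the same ligation. The MI group had the ligation without a compound, and the Sham group is labelled sham. Both compounds trap lipid radicals and are used as inhibitors of ferroptosis, a form of cell death driven by iron and lipid peroxidation. Per the labels' protocols the mice were anaesthetised with pentobarbital. How long after ligation the tissue was taken, and whether MI and Sham mice received a vehicle, the sources used here do not give. Nothing in the labels says that the 3 samples of a group are separate animals, so a p-value measures only the spread among these samples, which may be technical.

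Total counts per sample ranged from 45.5 to 60.8 M. Heart muscle markers were present at unlike levels. As group means, Myh6 (a myosin heavy chain of cardiomyocytes) lay between 7449 and 10060 CPM (counts scaled to libraries of equal size). Actc1 lay between 7892 and 9747 CPM, Tnni3 between 209.8 and 248.4 CPM and Mb between 20.25 and 31.31 CPM. The fibroblast marker Col1a1 lay between 10020 and 15680 CPM, above Myh6 in each ligated group and close to it in Sham. Whether these levels match the ventricle tissue of the labels was not tested. Gene identifiers in the files carry the rat prefix ENSRNOG, against the mouse of the labels, and no source used here names a genome build. Values of a gene are therefore compared between groups, and levels of different genes are read with that limit in mind.

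Most nucleated cells display peptides on class I molecules of the major histocompatibility complex (MHC). The immunoproteasome, in which Psmb8, Psmb9 and Psmb10 replace the constitutive catalytic subunits, cuts proteins to peptides, the transporter made of Tap1 and Tap2 carries them into the endoplasmic reticulum, and tapasin (Tapbp) holds the transporter beside class I molecules, whose light chain is B2m. Class II molecules, shown mainly by macrophages, dendritic cells and B cells, travel with the invariant chain Cd74. Nlrc5 is the transcriptional coactivator of class I genes and Ciita that of class II genes, and both are induced by interferon gamma.

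In the coordinates of the files, whose build is unnamed, 4 of the members lie side by side on chromosome 20. These are not positions of the mouse assembly used below for promoters, in which Tap1 and Psmb9 lie on chromosome 17. Psmb9 (ENSRNOG00000000459, minus strand, 3973420 to 3978845) and Tap1 (ENSRNOG00000000457, plus strand, 3979035 to 3989669) stand head to head with 189 bases between the gene models. Psmb8 (ENSRNOG00000000456, plus strand, 3990613 to 3993769) follows, and then Tap2 (ENSRNOG00000000455, plus strand, 3995544 to 4009587), so that the 4 genes span 36.2 kb. Tapbp (ENSRNOG00000029500, minus strand, 5468078 to 5476193) lies 1.46 Mb farther along the same chromosome and overlaps the gene model AC128962.1 on the other strand by 581 bases. The other members lie on other chromosomes. Outside Tapbp, no member's model overlapped another gene model.

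Promoter windows of 250 bases before to 50 bases after the gene start were found for 6 of the 10 members in the RefSeq table of the mouse assembly GRCm38.p6, the organism of the labels. A pair of them is printed, because they show the start region shared by Tap1 and Psmb9 and a window in which several motifs occur together. The Tap1 window is chr17:34187306-34187605 on the plus strand, and the B2m window is chr2:122147437-122147736 on the plus strand. Capitals mark matches to the motifs searched on both strands.
Tap1: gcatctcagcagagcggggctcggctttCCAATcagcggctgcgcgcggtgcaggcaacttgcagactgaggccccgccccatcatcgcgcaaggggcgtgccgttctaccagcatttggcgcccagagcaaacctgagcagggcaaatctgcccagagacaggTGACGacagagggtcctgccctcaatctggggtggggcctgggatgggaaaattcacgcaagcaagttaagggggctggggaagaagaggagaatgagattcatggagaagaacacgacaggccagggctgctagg
B2m: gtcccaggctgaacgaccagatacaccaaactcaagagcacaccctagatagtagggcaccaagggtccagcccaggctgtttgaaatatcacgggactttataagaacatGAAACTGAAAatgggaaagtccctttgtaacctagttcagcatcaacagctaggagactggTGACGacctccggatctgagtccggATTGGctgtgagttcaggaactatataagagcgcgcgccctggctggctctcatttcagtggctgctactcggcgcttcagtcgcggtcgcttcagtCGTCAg
The Psmb9 window, on the minus strand, shares 275 bases with the Tap1 window, and the starts of the genes lie 226 bases apart. The motifs were the interferon-stimulated response element (GAAA, any 2 bases, then GAAA), found in 3.44% of 32851 promoter windows of the same length, the gamma-activated site TTCNNNGAA (8.30%), the CCAAT box (37.4%) and the core of the cAMP response element, TGACG (20.8%). B2m holds GAAACTGAAA from -139 to -130 relative to its start, TGACG from -78 to -74 and again, on the other strand, from 45 to 49, and a CCAAT box on the other strand from -53 to -49. The Tap1 window holds CCAAT from -222 to -218 and TGACG from -86 to -82, and both lie in the stretch shared with Psmb9. The Psmb8 window holds the gamma-activated site TTCCCAGAA from -97 to -89. Of the 6 windows, B2m alone holds the interferon-stimulated response element and Psmb8 alone the gamma-activated site. The Psmb10 window holds none of the motifs. These matches describe letters in the windows and say nothing of binding.

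Levels per gene length were read in the deposited FPKM, in which the authors divided fragments by gene length and by library depth. B2m stood far above the other members, with a mean over the 12 samples of 419.8 FPKM and a range of 375 to 474.5. Tapbp (24.8 FPKM) and Psmb10 (13.6 FPKM) followed. Tap1, Psmb9 and Psmb8 averaged 8.90, 8.16 and 8.12 FPKM, with ranges that overlapped each other. Tap2 (3.28 FPKM, 1.85 to 4.56) and Cd74 (2.46 FPKM, 1.84 to 3.31) also overlapped. The coactivators were lowest, with Nlrc5 at 0.431 FPKM (0.274 to 0.685) and Ciita at 0.184 FPKM (0.0494 to 0.351). Ciita was supported by 15 to 130 counts per sample and Nlrc5 by 108 to 264.

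**Figure D1:**
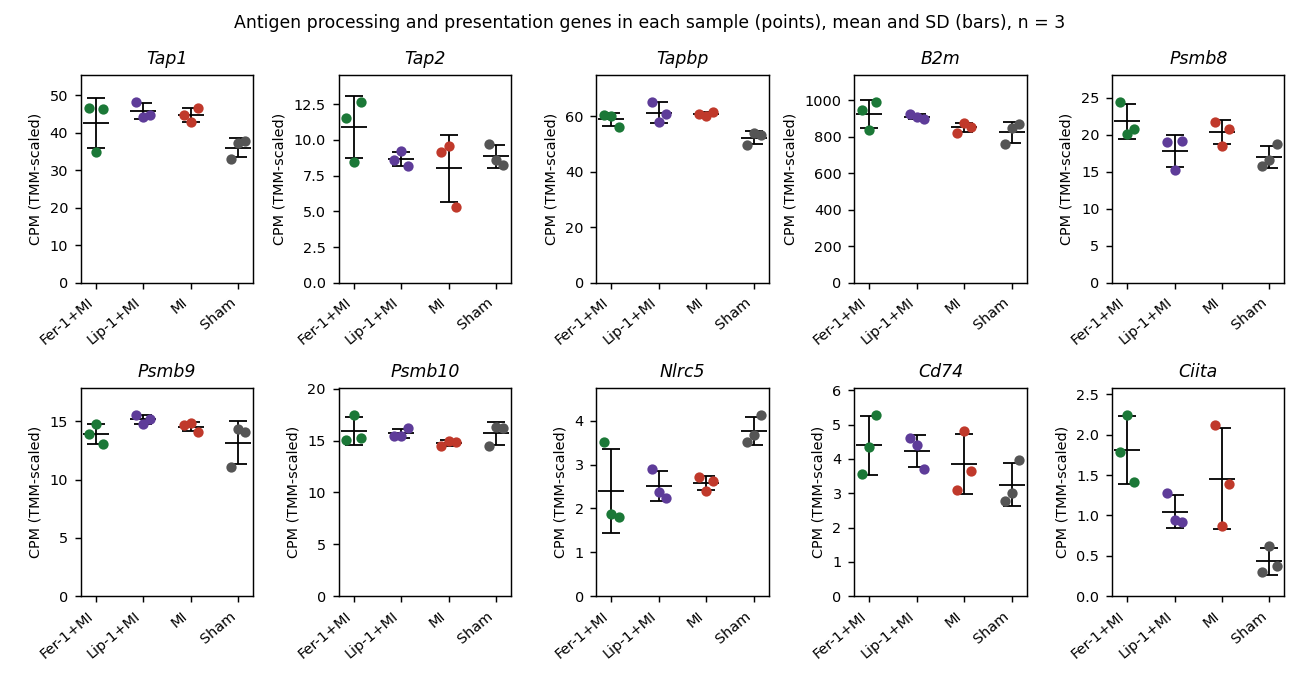
Level of each gene in each sample in CPM scaled by library composition, on linear axes from 0, with points for the 3 samples of Fer-1+MI, Lip-1+MI, MI and Sham and black bars for mean and SD. All 9 samples with ligation lie above the 3 Sham samples for Ciita and below them for Nlrc5.

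With ligation, the class II coactivator Ciita was higher than in Sham with and without a compound, by 2.41 to 4.17-fold, while the class I genes differed by less. In a test across all genes (edgeR quasi-likelihood, Benjamini-Hochberg adjusted p under 0.05), Fer-1+MI against Sham called 6 of the 10 members, Lip-1+MI against Sham 4 and MI against Sham 3. Tap1, Tapbp and Ciita rose in all of these comparisons, which share the Sham libraries. Of all genes tested, 36.3% were called in Fer-1+MI against Sham, 38.8% in Lip-1+MI against Sham and 43.6% in MI against Sham, so the members' counts are read against a tissue in which a large share of genes differed.

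By direction, Fer-1+MI against Sham called 5 members higher and 1 lower, beside 19.6% and 16.7% of all genes. Lip-1+MI against Sham called 3 higher and 1 lower, beside 20.8% and 18.0% of all genes. MI against Sham called 3 higher and 0 lower, beside 22.8% and 20.8% of all genes, while 5 members and 50.1% of all genes had an unadjusted p under 0.05. The median log2 fold change of the members was 0.21 in Fer-1+MI, 0.17 in Lip-1+MI and 0.18 in MI, each against Sham, and that of all genes was -0.01 in Fer-1+MI, -0.02 in Lip-1+MI and -0.004 in MI. A test for any difference among the 4 groups called Tap1, Tapbp, Psmb8 and Ciita, which are 4 of the 10 members, beside 44.3% of all genes.

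The size of small changes rested on how libraries were scaled. With counts divided by library size only, without the correction for library composition, the median of all genes against Sham moved to -0.16 in Fer-1+MI, -0.19 in Lip-1+MI and -0.17 in MI on the log2 scale. Members higher and lower then numbered 1 and 1 in Fer-1+MI, 1 and 1 in Lip-1+MI, and 1 and 2 in MI. Ciita alone was called higher in each. Every change below is relative to the median gene.

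**Figure D2:**
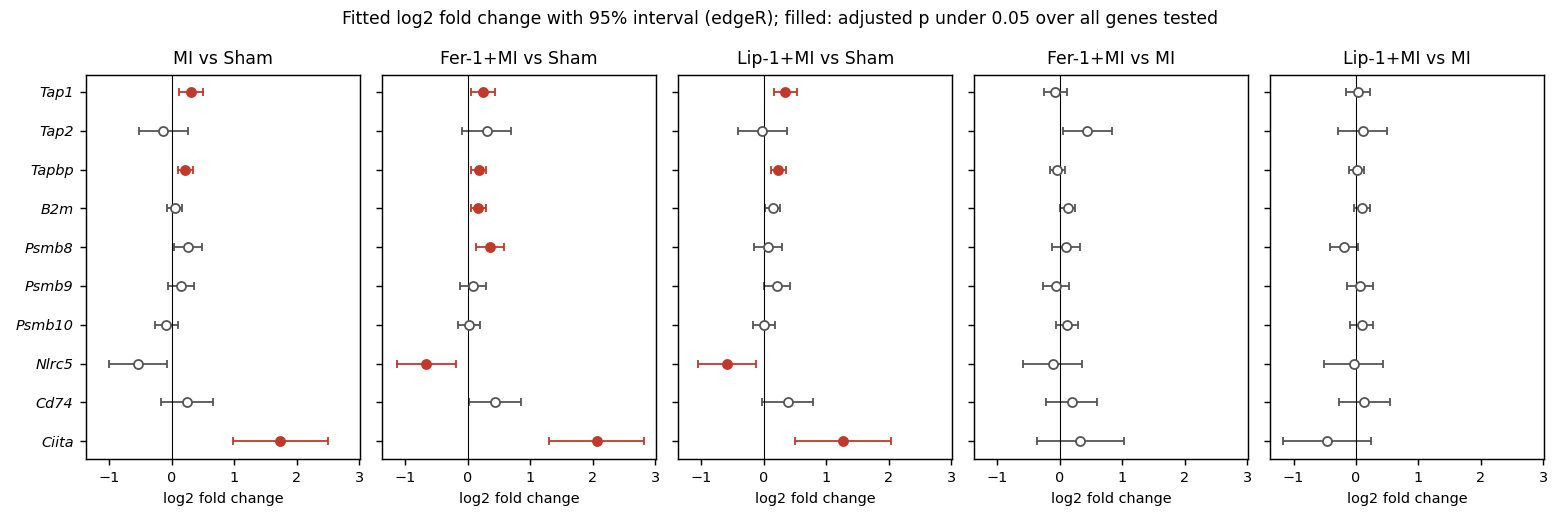
Fitted log2 fold change of each gene (points, with 95% intervals) in the 5 comparisons of the study. Filled points passed the test over all genes: 6 in Fer-1+MI, 4 in Lip-1+MI and 3 in MI, each against Sham, and 0 in either compound group against MI.

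Ciita (ENSRNOG00000002659, chromosome 10, minus strand, 5213350 to 5260608) is the coactivator that class II transcription requires. It had 1.79, 2.24 and 1.41 CPM in the Fer-1+MI samples. In Lip-1+MI it had 1.28, 0.944 and 0.921 CPM, in MI 2.12, 0.865 and 1.39 CPM, and in Sham 0.303, 0.623 and 0.375 CPM. The highest Sham sample lay below the lowest sample of every ligated group, and the ligated groups lay beside each other, with MI spread the most. Ciita rose 4.17-fold in Fer-1+MI (95% interval 2.46 to 7.04, adjusted p = 0.000183), 2.41-fold in Lip-1+MI (1.42 to 4.10, adjusted p = 0.00966) and 3.33-fold in MI (1.96 to 5.64, adjusted p = 0.00075), each against Sham in edgeR. It was called in each of the 18 alternative fits that could test it, with log2 fold changes of 1.87 to 2.40 in Fer-1+MI, of 1.08 to 1.61 in Lip-1+MI and of 1.36 to 2.07 in MI. Its Sham level rests on 15 to 33 counts per library. In bulk tissue, more cells of a type and more RNA per cell cannot be told apart, here and in every result that follows.

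Nlrc5 (ENSRNOG00000048222, chromosome 19, minus strand, 10905542 to 10976396), the class I coactivator, went the other way in these values. It had 3.51, 1.88 and 1.81 CPM in Fer-1+MI, 2.91, 2.38 and 2.24 CPM in Lip-1+MI, 2.72, 2.41 and 2.62 CPM in MI, and 3.52, 3.66 and 4.13 CPM in Sham. No ligated sample reached the lowest Sham sample, although Fer-1+MI replicate 1 came close to it. Nlrc5 fell in Fer-1+MI against Sham (log2 fold change -0.66 ± 0.22 (SE), adjusted p = 0.0255) and in Lip-1+MI against Sham (-0.59 ± 0.22, adjusted p = 0.0422). MI against Sham gave -0.55 ± 0.22 and missed the threshold (adjusted p = 0.053). These calls sit at the threshold: the adjusted p in Fer-1+MI was 0.0904 without Sham replicate 3, 0.05 without Sham replicate 2, 0.117 without Fer-1+MI replicate 2 and 0.122 without Fer-1+MI replicate 3. In Lip-1+MI it lay between 0.0517 and 0.134 when any Sham replicate, MI replicate 3, or Lip-1+MI replicate 2 or 3 was left out, and in MI it was 0.0135 to 0.0473 when any 1 of the Fer-1+MI replicates was left out.

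The peptide transporter and its partner tapasin were modestly higher with ligation. Tap1 had 46.7, 34.8 and 46.3 CPM in Fer-1+MI, 48.3, 44.2 and 44.7 CPM in Lip-1+MI, 44.6, 42.9 and 46.7 CPM in MI, and 33.1, 37.3 and 37.7 CPM in Sham. Fer-1+MI replicate 2 lay among the Sham samples, and the other 8 ligated samples lay above them. Tap1 rose by a log2 fold change of 0.24 ± 0.09 in Fer-1+MI (adjusted p = 0.0474), 0.34 ± 0.09 in Lip-1+MI (adjusted p = 0.00568) and 0.31 ± 0.09 in MI (adjusted p = 0.00964), each against Sham. In Fer-1+MI the call was kept only when Fer-1+MI replicate 2 was the library left out (adjusted p 0.0517 to 0.196 without any other), and in MI it was lost without Sham replicate 1 (adjusted p = 0.056).

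Tapasin keeps class I molecules at the transporter until a peptide fits. In deposited FPKM, which carry no correction for library composition, Tapbp had the smallest relative spread of the members over the 12 samples. That rank did not hold in CPM, where Psmb10 varied less. Tapbp had 60.4, 60.3 and 56.3 CPM in Fer-1+MI, 65.3, 57.9 and 60.7 CPM in Lip-1+MI, 60.8, 60.0 and 61.4 CPM in MI, and 49.5, 54.1 and 53.3 CPM in Sham. Every ligated sample lay above every Sham sample. Tapbp rose by a log2 fold change of 0.17 ± 0.06 in Fer-1+MI (adjusted p = 0.0226), 0.23 ± 0.06 in Lip-1+MI (adjusted p = 0.00339) and 0.22 ± 0.06 in MI (adjusted p = 0.00455), each against Sham. With library size alone as the scale, Tapbp stood at 0.03 in Fer-1+MI, 0.06 in Lip-1+MI and 0.05 in MI, Tap1 at 0.09 in Fer-1+MI, 0.17 in Lip-1+MI and 0.15 in MI, and neither gene passed the test. Without Sham replicate 1, Fer-1+MI replicate 1 or Fer-1+MI replicate 2, the Tapbp call in Fer-1+MI was also lost (adjusted p 0.0661 to 0.109).

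Tap2, the other chain of the transporter, was not called in any comparison. It had 11.5, 8.44 and 12.7 CPM in Fer-1+MI, 8.58, 9.20 and 8.17 CPM in Lip-1+MI, 9.13, 9.60 and 5.33 CPM in MI, and 9.73, 8.55 and 8.24 CPM in Sham. The groups overlapped, and MI replicate 3 was the lowest of all 12 samples. Its log2 fold change against Sham was 0.30 in Fer-1+MI (95% interval -0.09 to 0.69), -0.03 in Lip-1+MI (-0.42 to 0.36) and -0.14 in MI (-0.53 to 0.26).

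Among the immunoproteasome subunits, Psmb8, the chymotrypsin-like one, was called in 1 comparison. It had 24.5, 20.1 and 20.8 CPM in Fer-1+MI, 19.1, 15.3 and 19.1 CPM in Lip-1+MI, 21.7, 18.5 and 20.8 CPM in MI, and 15.8, 16.5 and 18.7 CPM in Sham. All Fer-1+MI samples lay above the Sham samples, whereas Lip-1+MI and MI overlapped Sham. Psmb8 rose in Fer-1+MI against Sham (log2 fold change 0.36 ± 0.10, adjusted p = 0.0125), and gave 0.26 ± 0.11 in MI (adjusted p = 0.0576) and 0.07 ± 0.11 in Lip-1+MI (adjusted p = 0.664). The Fer-1+MI call was lost with library size only (0.21, adjusted p = 0.119), without Sham replicate 1 (adjusted p = 0.0615) and without Fer-1+MI replicate 1 (adjusted p = 0.0724). In MI against Sham it passed the test without Sham replicate 3, MI replicate 2, Fer-1+MI replicate 1 or Lip-1+MI replicate 2 (adjusted p 0.0332 to 0.0437).

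Psmb9 and Psmb10 (ENSRNOG00000019494, chromosome 19, minus strand, 37909546 to 37912027) were not called in any comparison. Psmb9 ranged from 13.1 to 14.8 CPM in Fer-1+MI, 14.8 to 15.6 CPM in Lip-1+MI, 14.1 to 14.8 CPM in MI and 11.1 to 14.4 CPM in Sham. Psmb10 ranged from 15.0 to 17.5 CPM in Fer-1+MI, 15.4 to 16.2 CPM in Lip-1+MI, 14.5 to 15.0 CPM in MI and 14.5 to 16.4 CPM in Sham. Lip-1+MI lay above Sham for Psmb9 without overlap, with a log2 fold change of 0.20 (95% interval -0.001 to 0.41), and Psmb10 gave 0.02 in Fer-1+MI, 0.00 in Lip-1+MI and -0.09 in MI against Sham. With library size only, Psmb10 was lower in MI than in Sham (-0.25, adjusted p = 0.0225).

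Each immunoproteasome subunit takes the place of a constitutive one, Psmb8 that of Psmb5, Psmb9 that of Psmb6 and Psmb10 that of Psmb7. The subunit's share of the FPKM of its pair needs no scaling between libraries. Psmb10 made up 15.0, 17.9 and 15.2% of its pair in Fer-1+MI, 15.0, 14.6 and 15.9% in Lip-1+MI, 14.7, 15.1 and 14.9% in MI, and 18.0, 18.4 and 19.0% in Sham. Every ligated sample lay below every Sham sample. The mean log2 ratio of Psmb10 to Psmb7 counts differed from Sham by -0.25 in Fer-1+MI, -0.34 in Lip-1+MI and -0.37 in MI, each with p = 0.1 in an exact two-sided permutation test, the smallest p that 3 against 3 samples allow. Psmb7 itself rose, by a log2 fold change of 0.27 ± 0.04 in Fer-1+MI (adjusted p = 0.000103), 0.34 ± 0.04 in Lip-1+MI (adjusted p = 6.96e-06) and 0.28 ± 0.04 in MI (adjusted p = 4.63e-05), each against Sham. It was called under all 20 alternatives.

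The other pairs moved differently. Psmb8 made up 14.3, 12.0 and 13.5% of its pair in Fer-1+MI, 10.8, 9.36 and 11.4% in Lip-1+MI, 11.4, 11.0 and 11.8% in MI, and 9.43, 9.50 and 11.3% in Sham. The Fer-1+MI samples stood above all 9 others. Their mean log2 ratio exceeded that of Sham by 0.44 and that of MI by 0.25 (exact p = 0.1 for each), and the ratio in Lip-1+MI exceeded that of Sham by 0.06 (exact p = 0.9). For Psmb9 the shares were 9.53 to 10.8% in Fer-1+MI, 10.5 to 12.3% in Lip-1+MI, 9.59 to 10.7% in MI and 9.36 to 11.2% in Sham, and all groups overlapped Sham. These 3 ratios were compared in 5 comparisons each, no p can pass 0.05 at this size, and a Benjamini-Hochberg adjustment cannot lower them.

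**Figure D3:**
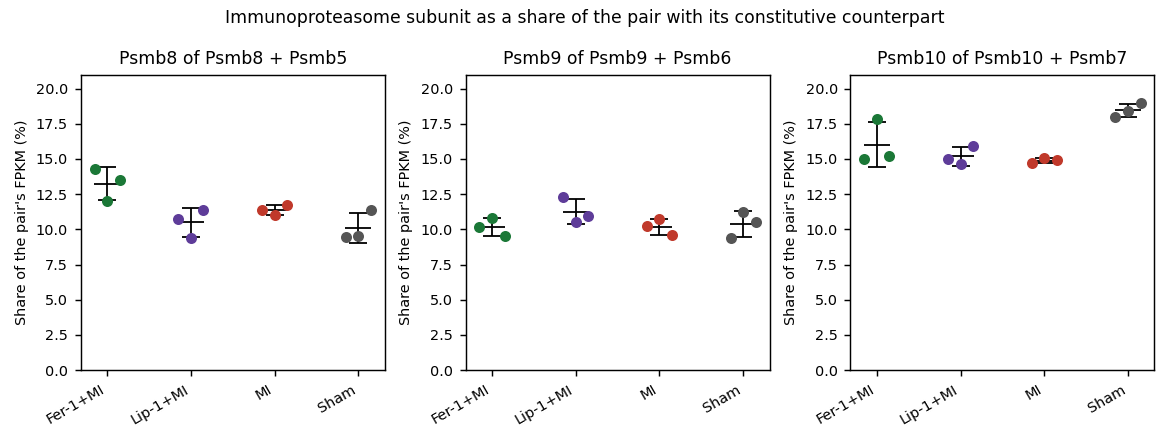
Share of each immunoproteasome subunit in the FPKM of its pair with the constitutive counterpart, in percent, with points for the 3 samples of Fer-1+MI, Lip-1+MI, MI and Sham and black bars for mean and SD. Psmb10 lies between 14.6 and 17.9% with ligation and between 18.0 and 19.0% in Sham, and Psmb8 is highest in Fer-1+MI.

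B2m (ENSRNOG00000017123, chromosome 3, plus strand, 114087287 to 114093309) encodes the light chain of class I molecules. It had 944, 838 and 991 CPM in Fer-1+MI, 924, 906 and 897 CPM in Lip-1+MI, 822, 875 and 855 CPM in MI, and 759.8, 847 and 869 CPM in Sham. Lip-1+MI lay above MI and Sham without overlap, while Fer-1+MI replicate 2 lay among the MI and Sham samples. B2m rose in Fer-1+MI against Sham (log2 fold change 0.16 ± 0.06, adjusted p = 0.0325), and gave 0.14 ± 0.06 in Lip-1+MI (adjusted p = 0.0639) and 0.04 ± 0.06 in MI (adjusted p = 0.583). The Fer-1+MI call was lost with library size only (0.02, adjusted p = 0.818) and without Sham replicate 1 (0.181), Fer-1+MI replicate 1 (0.0864) or Fer-1+MI replicate 3 (0.169). DESeq2 called B2m in Lip-1+MI against Sham (adjusted p = 0.0489), as did edgeR without Sham replicate 3 or without Fer-1+MI replicate 2 or 3 (0.0316 to 0.0458). In deposited FPKM, which carry no correction for library composition, B2m averaged 435 ± 38.8 in Fer-1+MI, 424 ± 6.05 in Lip-1+MI, 395 ± 18.5 in MI and 426 ± 33.0 in Sham (SD, n = 3 each).

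Cd74 (ENSRNOG00000018735, chromosome 18, plus strand, 56071478 to 56080849) encodes the invariant chain that fills the class II groove on the way to the endosome. It had 3.56, 4.35 and 5.28 CPM in Fer-1+MI, 4.60, 4.41 and 3.72 CPM in Lip-1+MI, 3.09, 4.82 and 3.64 CPM in MI, and 2.77, 3.02 and 3.97 CPM in Sham. All groups overlapped. Its log2 fold change against Sham was 0.43 in Fer-1+MI (95% interval 0.02 to 0.85, adjusted p = 0.0969), 0.38 in Lip-1+MI (-0.03 to 0.79, adjusted p = 0.142) and 0.24 in MI (-0.17 to 0.66, adjusted p = 0.351). It passed the test in Fer-1+MI without Sham replicate 3 (adjusted p = 0.0436) and without Fer-1+MI replicate 1 (adjusted p = 0.0462). Sham replicate 1 was the lowest Sham sample for 9 of the 10 members, all but Tap2.

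The values of a group did not overlap those of Sham for 4 of the 10 members in Fer-1+MI, for 6 in Lip-1+MI and for 4 in MI. Over all genes tested, 47.5% did not overlap in Fer-1+MI, 51.3% in Lip-1+MI and 53.8% in MI, beside the 36.3%, 38.8% and 43.6% called. Set against MI, 1 of the 10 members did not overlap in Fer-1+MI (Psmb10) and 2 in Lip-1+MI (B2m and Psmb10). Of all genes tested, 21% and 23.6% did not overlap MI in these comparisons.

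Setting the compound groups against MI asks whether pre-treatment changed these genes after ligation. No member was called in either comparison by edgeR at an adjusted p under 0.05, against 5.36% of all genes in Fer-1+MI against MI and 6.10% in Lip-1+MI against MI. An unadjusted p under 0.05 was reached by 1 member in Fer-1+MI, beside 18.4% of all genes, and by 0 in Lip-1+MI, beside 19.0%. Each of the 20 alternatives, DESeq2 and limma included, also called 0. That 1 member was Tap2, with a log2 fold change of 0.44 ± 0.18 (95% interval 0.04 to 0.83, adjusted p = 0.212 in edgeR), beside the low value of MI replicate 3, and its log2 fold change ran from 0.22 to 0.59 over the alternatives. In Fer-1+MI the other members lay between -0.12 (Nlrc5) and 0.32 (Ciita, 95% interval -0.37 to 1.02). In Lip-1+MI the values ran between -0.46 (Ciita, -1.17 to 0.24) and 0.13 (Cd74, -0.28 to 0.55), and Psmb8 gave -0.19 (-0.41 to 0.03).

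The doses of the compounds differed, so they were not tested against each other. Side by side, with both comparisons sharing the MI libraries, Ciita gave 0.32 in Fer-1+MI and -0.46 in Lip-1+MI. Psmb8 gave 0.10 in Fer-1+MI and -0.19 in Lip-1+MI, and Tap2 gave 0.44 in Fer-1+MI and 0.11 in Lip-1+MI. None of these values passed the test. B2m gave 0.12 in Fer-1+MI and 0.10 in Lip-1+MI, and Tap1 gave -0.07 in Fer-1+MI and 0.03 in Lip-1+MI. For Tapbp the 95% intervals were -0.16 to 0.08 in Fer-1+MI and -0.11 to 0.13 in Lip-1+MI, the narrowest of the members.

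Around the members, genes that carry or answer the interferon signal were called in both directions. Of 11 tested genes of this list, 8 were higher and 2 lower in Fer-1+MI, 9 higher and 2 lower in Lip-1+MI, and 7 higher and 2 lower in MI, each against Sham. Irf1, a transcription factor of class I and immunoproteasome promoters, had 98.2 to 103.2 CPM in Fer-1+MI, 86.5 to 95.5 CPM in Lip-1+MI, 91.8 to 111 CPM in MI and 29.9 to 36.6 CPM in Sham, with all ligated samples above all Sham samples. Its log2 fold changes against Sham were 1.57 in Fer-1+MI, 1.42 in Lip-1+MI and 1.59 in MI. The kinase Jak2, which acts under the interferon gamma receptor, gave 1.58 in Fer-1+MI, 1.74 in Lip-1+MI and 1.59 in MI. The receptor chains rose as well, with log2 fold changes in MI of 1.06 for Ifngr2 and 1.41 for Ifnar2. Stat2 and Irf9, which relay the signal to the nucleus, fell. For Stat2 the log2 fold changes were -0.69 in Fer-1+MI, -0.47 in Lip-1+MI and -0.64 in MI. With library size only, 7 genes were higher in each comparison, and 2 were lower in Fer-1+MI, 2 in Lip-1+MI and 4 in MI. Ifnb1 (interferon beta) fell below the count filter and Ifng (interferon gamma) was not analysed here.

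Partners of the transporter differed modestly with ligation, in both directions. Of 9 tested genes of the peptide-loading complex and of peptide trimming, 3 were higher and 0 lower in Fer-1+MI, 4 and 1 in Lip-1+MI, and 4 and 1 in MI, against Sham. The oxidoreductase Pdia3, a part of the loading complex, gave log2 fold changes of 0.18 in Fer-1+MI, 0.27 in Lip-1+MI and 0.19 in MI. The chaperone Canx, which folds class I heavy chains, gave 0.13 in Fer-1+MI, 0.24 in Lip-1+MI and 0.11 in MI. Tapbpl, a tapasin relative that edits peptides, gave -0.27 ± 0.08 in Lip-1+MI (adjusted p = 0.0128) and -0.33 ± 0.08 in MI (adjusted p = 0.00266). With library size only the balance turned: 0 higher and 4 lower in Fer-1+MI, 1 and 4 in Lip-1+MI, and 0 and 4 in MI. Leaving out 1 library moved the number called between 1 and 3 in Fer-1+MI, between 3 and 5 in Lip-1+MI and between 2 and 6 in MI.

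The proteasome core showed a like dependence. Of 10 other subunits of the core particle, 2 were higher in Fer-1+MI, 6 in Lip-1+MI and 7 in MI against Sham, and 0 were lower in each. With library size only, 1 was higher in each and 1 was lower in Fer-1+MI, 3 in Lip-1+MI and 1 in MI, while leaving out 1 library moved the number called between 1 and 4 in Fer-1+MI, between 4 and 6 in Lip-1+MI and between 3 and 7 in MI. Psma6 was called higher under all 20 alternatives, with log2 fold changes of 0.49 in Fer-1+MI, 0.54 in Lip-1+MI and 0.48 in MI. Among 6 genes of the proteasome activator PA28 and of proteasome assembly, the activator chains Psme1 and Psme2 were not called in any of the 5 comparisons.

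On the class II side, transcripts of the alpha and beta chains were scarce. Of 6 tested genes of these chains and their chaperones, 2 were higher in Fer-1+MI, 1 in Lip-1+MI and 1 in MI against Sham, and 0 were lower. RT1-Bb, a class II beta chain by the rat names of the files, had 1.92 to 2.23 CPM in Fer-1+MI, 1.42 to 1.77 CPM in Lip-1+MI, 1.06 to 1.43 CPM in MI and 0.579 to 0.812 CPM in Sham. The groups with ligation lay above Sham without overlap, and RT1-Bb rose by 1.61 ± 0.24 in Fer-1+MI (adjusted p = 3.71e-05), 1.22 ± 0.24 in Lip-1+MI (adjusted p = 0.000579) and 0.93 ± 0.25 in MI (adjusted p = 0.00496) on the log2 scale. RT1-Da, a class II alpha chain, was called in Fer-1+MI against Sham alone (0.81 ± 0.25, adjusted p = 0.0145) and lost the call without Sham replicate 1.

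Of the 7 transcription factors that build the platform for Ciita at class II promoters, 2 were higher and 2 lower in Fer-1+MI, 0 and 2 in Lip-1+MI, and 2 and 2 in MI against Sham. Rfx5, the DNA-binding chain of the RFX complex, gave 0.31 in Fer-1+MI and 0.34 in MI, and its partner Rfxap gave -0.76 in Fer-1+MI, -0.80 in Lip-1+MI and -0.92 in MI. With library size only 0 were higher, and 2 were lower in Fer-1+MI, 3 in Lip-1+MI and 3 in MI. Leaving out 1 library gave 2 to 4 calls in Fer-1+MI, 1 to 2 in Lip-1+MI and 3 to 5 in MI.

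Genes of class II processing in endosomes, unlike the members, were called against MI, as were some genes of other lists. Against Sham, 0 of 9 were higher and 3 lower in Fer-1+MI, 2 and 0 in Lip-1+MI, and 1 and 5 in MI. Against MI, 2 were higher in Fer-1+MI and 5 in Lip-1+MI, and 0 were lower in either. Leaving out 1 library gave 0 to 2 calls in Fer-1+MI and 3 to 6 in Lip-1+MI, and library size only gave 4 and 5. Ctsl, a protease that trims the invariant chain in some cells, gave 0.53 ± 0.04 in Lip-1+MI against MI (adjusted p = 8.21e-07) and 0.17 ± 0.04 in Fer-1+MI against MI (adjusted p = 0.0297), the second of which held in 15 of 20 alternatives. Ctsd gave 0.24 ± 0.04 in Lip-1+MI against MI (adjusted p = 0.00053). Over the same genes the library-size scaling gave 0 higher against Sham, with 5 lower in Fer-1+MI, 5 in Lip-1+MI and 6 in MI. Cd74, the substrate of these proteases, was not called against MI. Of the other lists in Lip-1+MI against MI, 2 interferon signal genes and 1 class II transcription factor were higher. In the class I heavy chain list 1 gene was lower, as were 1 dendritic cell, 1 endothelium and 2 heart muscle markers. Fibroblast markers gave 1 higher and 2 lower. In Fer-1+MI against MI, 1 endothelium marker was higher, and fibroblast markers gave 1 higher and 1 lower.

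The RT1 class I heavy chains include near-identical copies, so that counts of single loci are uncertain. Of 24 tested genes of heavy chains and of class I like proteins, such as Procr and Cd1d1, 7 were higher and 3 lower in Fer-1+MI, 6 and 5 in Lip-1+MI, and 6 and 3 in MI against Sham. Scaled by library size alone, the list evened out or turned, with 5 higher and 5 lower in Fer-1+MI, 4 and 6 in Lip-1+MI, and 4 and 7 in MI. RT1-CE7 gave log2 fold changes of 0.90 in Fer-1+MI, 0.74 in Lip-1+MI and 0.91 in MI. RT1-N2 gave -0.79 in Fer-1+MI, -0.78 in Lip-1+MI and -1.16 in MI.

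Among genes of co-stimulation, Cd274 and Cd40 rose in all ligated groups against Sham. Cd274 (PD-L1, an inhibitory ligand of T cells) had 25.4 to 27.1 CPM in Fer-1+MI, 27.6 to 29.8 CPM in Lip-1+MI, 27.0 to 31.3 CPM in MI and 6.07 to 7.95 CPM in Sham. All ligated samples lay far above Sham. Its log2 fold changes were 1.83 ± 0.10 in Fer-1+MI (adjusted p = 4.09e-11), 1.97 ± 0.10 in Lip-1+MI (adjusted p = 1.56e-11) and 2.00 ± 0.10 in MI (adjusted p = 1.16e-11). Cd40, which receives help from T cells, gave 0.76 in Fer-1+MI, 0.75 in Lip-1+MI and 0.92 in MI. Of 4 tested, 3 were higher in Fer-1+MI, 2 in Lip-1+MI and 3 in MI, and 0 lower.

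**Figure D4:**
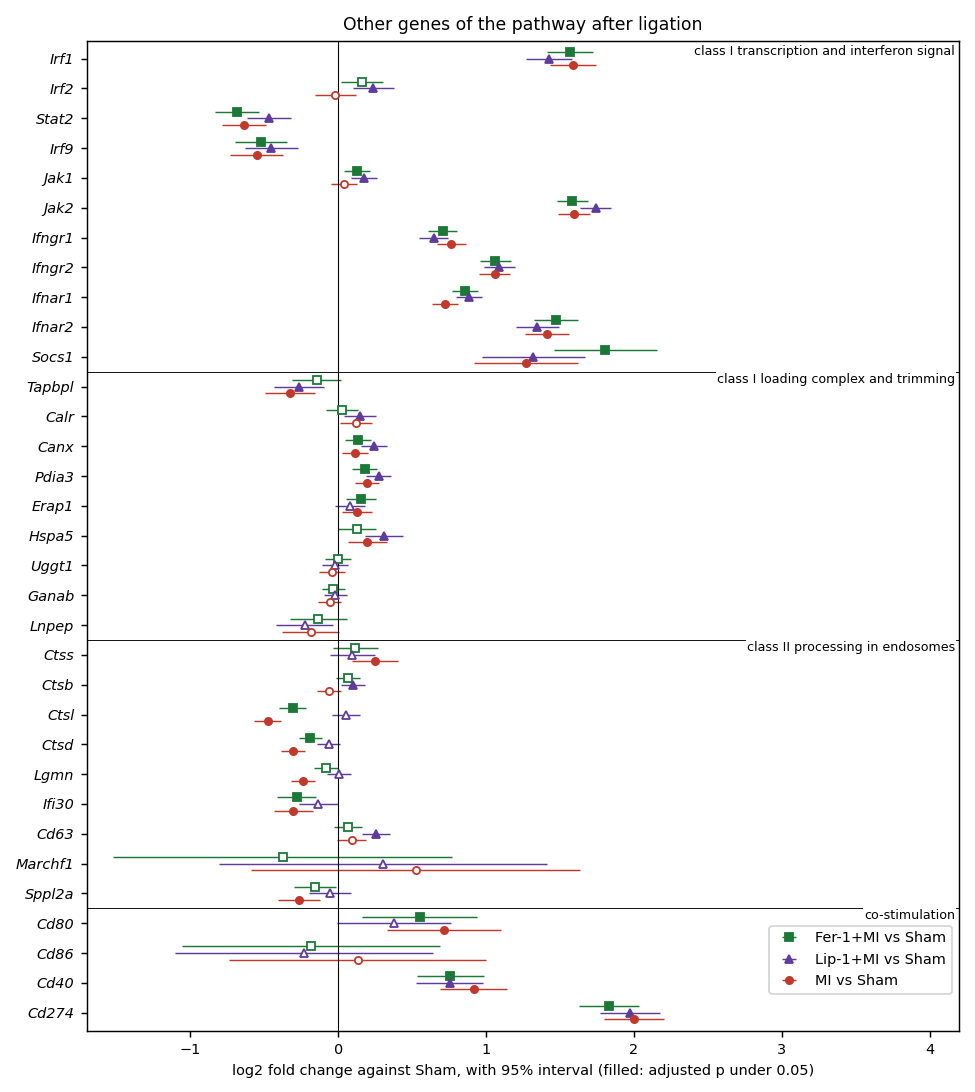
Log2 fold change against Sham of each tested gene of 4 lists around the members (squares Fer-1+MI, triangles Lip-1+MI, circles MI, filled where the adjusted p was under 0.05). Irf1, Jak2 and Cd274 lie at 1.42 or above in all 3 groups, while Stat2 and Irf9 lie below 0.

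Markers of the cells that present antigen were measured beside the members. The 8 dendritic cell markers summed to 47.0 to 52.6 CPM in Fer-1+MI, 40.8 to 43.6 CPM in Lip-1+MI, 45.7 to 49.8 CPM in MI and 30.7 to 32.6 CPM in Sham, with Sham below every ligated sample. Zbtb46, a transcription factor of dendritic cells that endothelium also makes, held most of that gap, with means of 19.1 CPM in Fer-1+MI, 20.6 CPM in Lip-1+MI, 20.9 CPM in MI and 8.93 CPM in Sham. Itgax averaged 25.7 CPM in Fer-1+MI, 17.0 CPM in Lip-1+MI, 22.2 CPM in MI and 18.8 CPM in Sham, and it was called higher in Fer-1+MI and in MI, the second of which held in 14 of 20 alternatives. Of 6 tested, 3 were higher and 1 lower in Fer-1+MI, 2 and 0 in Lip-1+MI, and 3 and 0 in MI against Sham, with a median log2 fold change of 0.27 in Fer-1+MI, -0.08 in Lip-1+MI and -0.04 in MI. Flt3, Clec9a and Ccr7 each averaged under 1 CPM in every group, and Xcr1, of cross-presenting dendritic cells, was at 0 in all Lip-1+MI, MI and Sham samples. The 12 macrophage and monocyte markers summed to 1041 to 1042 CPM in Fer-1+MI, 1074 to 1112 CPM in Lip-1+MI, 1003 to 1141 CPM in MI and 952 to 1046 CPM in Sham. Of these 12, 5 were higher and 2 lower in Fer-1+MI, 6 and 0 in Lip-1+MI, and 5 and 2 in MI against Sham. Adgre1, which encodes the macrophage marker F4/80, rose by 0.61 in Fer-1+MI, 0.69 in Lip-1+MI and 0.78 in MI, and Cd163, a scavenger receptor of resident macrophages, fell by 0.33 in Fer-1+MI and 0.29 in MI on the log2 scale. Scaled by library size alone, the macrophage list gave 3 and 3 in Fer-1+MI, 2 and 4 in Lip-1+MI, and 4 and 3 in MI, and the dendritic cell list gave 3 and 2 in Fer-1+MI, 2 and 2 in Lip-1+MI, and 1 and 1 in MI. The 12 markers of T, B and NK cells summed to 10.2 to 12.1 CPM in Fer-1+MI, 10.6 to 13.0 CPM in Lip-1+MI, 10.2 to 15.1 CPM in MI and 10.7 to 14.4 CPM in Sham, with Cd3e, Cd3g and Ncr1 at 0 in all 12 samples.

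The 6 fibroblast markers summed to 18570 to 19760 CPM in Fer-1+MI, 17610 to 17650 CPM in Lip-1+MI, 21150 to 23280 CPM in MI and 14910 to 15540 CPM in Sham, again with Sham below every ligated sample. Col1a1 held most of the sum, with a mean of 10020 CPM in Sham. Of the 6, 4 were higher and 1 lower in Fer-1+MI, 3 and 1 in Lip-1+MI, and 3 and 2 in MI against Sham. With library size only the list gave 2 and 2 in Fer-1+MI, 1 and 2 in Lip-1+MI, and 3 and 2 in MI. Pdgfra, a receptor of fibroblasts, rose by 1.41 in Fer-1+MI, 1.26 in Lip-1+MI and 1.21 in MI on the log2 scale. Tcf21, of the same list, gave -0.55 in Fer-1+MI, -0.41 in Lip-1+MI and -0.46 in MI. The 5 endothelium markers summed to 247 to 261 CPM in Fer-1+MI, 183 to 213 CPM in Lip-1+MI, 214 to 237 CPM in MI and 219 to 225 CPM in Sham. Single markers moved in opposite directions. Of the 5, 1 was higher and 0 lower in Fer-1+MI, 0 and 2 in Lip-1+MI, and 1 and 1 in MI against Sham. Vwf gave 0.85 in Fer-1+MI and 0.75 in MI, and Kdr gave -0.41 in Lip-1+MI and -0.25 in MI on the log2 scale. Of the 7 heart muscle markers, 1 was higher and 3 lower in Fer-1+MI, 1 and 4 in Lip-1+MI, and 2 and 3 in MI against Sham. With library size only they gave 1 and 4 in Fer-1+MI, 0 and 5 in Lip-1+MI, and 0 and 4 in MI. Myh6 gave -0.29 in Fer-1+MI, -0.32 in Lip-1+MI and -0.43 in MI on the log2 scale, while Actc1 gave 0.305 in Lip-1+MI and 0.27 in MI. The part of any of these cells in the members' values was not tested.

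The members did not vary as 1 unit. Across the 12 samples the highest correlation of log2 CPM between members was that of Tapbp with Ciita (r = 0.79), which stood at 0.10 among the 9 ligated samples, and the lowest was that of Nlrc5 with Cd74 (r = -0.62, and -0.55 among the 9). Tap1 and Tap2 gave 0.01 and 0.05. Of all tested genes with a mean of at least 1 CPM, the pattern most like that of Ciita belonged to LOC102553828 (r = 0.96 over 12 samples and 0.91 over the 9), that most like Nlrc5 to Tlr6 (0.94 and 0.96), and that most like Tap2 to E2f5 (0.91 and 0.92). These are descriptions of samples that share the split between Sham and ligation, and the top of all genes searched is high by selection.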

How the data were processed

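The authors deposited a table of whole-number read counts per gene, not normalised, and the FPKM of each gene (fragments divided by its length and by library depth), with gene symbols and coordinates. Per the labels' protocols, libraries were poly(A)-selected with dUTP strand marking. Per the submitters' processing notes, the tools were HISAT2 2.2.1, StringTie 2.1.6, cutadapt 1.9, FastQC, edgeR and DESeq2, with no roles given. No source used here gives the genome build or says whether counting used strand. Genes carry rat identifiers although the labels give mouse.

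Of 32623 genes in the deposited counts, 16910 passed filterByExpr of edgeR 4.0.16 (R 4.3.3) at a minimum count of 10 and a minimum total of 15. Counts were scaled by trimmed mean of M values (TMM), and all 12 samples entered 1 robust quasi-likelihood fit on group alone, which left 8 residual degrees of freedom. Adjusted p-values are Benjamini-Hochberg over all genes tested, with a threshold of 0.05. CPM values use the TMM-scaled library sizes. Total counts of 45.5 to 60.8 M set a floor of 3 counts at 0.0660 CPM in the smallest library, covering counting error only. Alternatives were other scalings, no filter, DESeq2 1.42.0, limma 3.58.1 on log2 FPKM with a pseudocount of 1 or 0.1 and a minimum mean of 0.5 FPKM, a replicate term, fits of 2 groups, and leaving out each library. Ratios of subunits were compared with exact permutation tests.

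All 10 members are named in every comparison. From each list of related genes, genes are named from the 3 called genes per direction with the smallest p, and Ifnar2, Psme1, Psme2, Flt3, Clec9a, Ccr7, Xcr1 and the interferon genes were added for their role after their values were seen. A gene of the interferon signal list is not reported here. The members and lists were chosen with earlier results of these data known.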

Additional observations from a re-analysis of the deposited data

How the results depend on the processing

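Ciita kept its call and direction against Sham in each alternative that could test it, and no call of a member reversed its sign. Over 980 member values under 20 alternatives, 902 stayed on their side of the threshold, 56 lost a call, 22 gained one and 0 reversed, and 46 of the 902 changed sign where neither value was called. In MI against Sham the number of members called, 3, became 1 with limma on log2(FPKM + 1) and 1 with log2(FPKM + 0.1), where Tap1 and Tapbp lost their calls and the 1 call was Psmb10, lower (adjusted p = 0.0135 and 0.0137) and not called in edgeR. It became 5 with only the 2 groups in the fit and 5 with a replicate block. In Fer-1+MI against Sham the 6 calls became 2 with library size only and 0 with either limma setting, and in Lip-1+MI against Sham the 4 calls became 2 and 0. The limma filter removed Ciita and Nlrc5, and FPKM carry no TMM scaling. Leaving out each library gave 2 to 5 member calls in Fer-1+MI, 3 to 5 in Lip-1+MI and 2 to 5 in MI against Sham (2 without Sham replicate 1 in Fer-1+MI and in MI), and 0 in both comparisons with MI. Over all genes, Fer-1+MI against MI called 907, against 550 with only the 2 groups in the fit and 569 to 1071 when 1 library was left out, and Lip-1+MI against MI called 1031, against 661 to 1134. A check of pairing gave correlations of -0.02 to 0.09 between samples with the same number in different groups (18 pairs), so the numbers were not taken to pair the samples. The block moved no member count by over 1.5 times except the 5 in MI against Sham, where Psmb8 and Nlrc5 gained calls.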

Other observations

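A wider view was taken, after the results above were known, from the pathway annotation in the files. Of the 79 genes annotated there to antigen processing and presentation, 68 were tested, 6 of them members. In Fer-1+MI against Sham 26 were higher and 8 lower (50.0% called, beside 36.3% of all genes tested). In Lip-1+MI against Sham 24 were higher and 8 lower (47.1%, beside 38.8%). In MI against Sham 23 were higher and 9 lower (47.1%, beside 43.6%). Against MI, 2 were higher and 0 lower in Fer-1+MI, while 4 were higher and 1 lower in Lip-1+MI (2.94% and 7.35% called, beside 5.36% and 6.10% of all genes). Many class I heavy chains in this annotation are near-identical copies, whose counts are not independent. All calls in this wider view rest on TMM scaling. They were not repeated with library size only, under which several lists above evened out or turned.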
